A study of Mus musculus with 8 samples.

Results

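The genes examined here were the CC chemokine genes Ccl20, Ccl2 and Ccl7, 3 of the 9294 genes tested in mouse keratinocytes with and without Nfkbiz. They were chosen by name, as every probe set whose platform annotation gave exactly 1 symbol equal to one of them. That gave 3 of 11373 probe sets, 1 for each gene, namely 1422029_at for Ccl20, 1420380_at for Ccl2 and 1421228_at for Ccl7. Total RNA was labelled with biotin and hybridised to 8 one-colour oligonucleotide arrays. The 4 Nfkbiz KO v-rasHa arrays came from keratinocytes lacking Nfkbiz, and the 4 wild-type v-rasHa arrays from keratinocytes with the gene intact. All 8 cultures were of the C57BL/6 strain, grew in regular medium and had carried v-rasHa, the activated Ras oncogene of a murine sarcoma virus, for 3 days. No culture without v-rasHa was among them, so a difference between the genotypes is a difference under the oncogene only. The labels call the samples biological replicates, and the sources used here do not say whether each came from a separate animal or how the knockout was made.

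Chemokines are small secreted proteins that guide leukocytes by binding receptors on their surface. CCL20 is the ligand of CCR6, a receptor of interleukin-17-producing T cells and of immature dendritic cells, and epidermal keratinocytes make it when stimulated by interleukin-1, interleukin-17 or tumour necrosis factor. CCL2 and CCL7 are monocyte chemoattractants that signal through CCR2, and CCL7 also binds other CC receptors. Nfkbiz encodes IkBz, a nuclear member of the IkB family that binds NF-kB dimers on DNA and is required for the transcription of a subset of NF-kB target genes.

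The promoter of Ccl20 is printed because IkBz acts through NF-kB at promoters, and Ccl20 is the 1 member of 3 matched to a promoter window in the RefSeq table used here. The window runs from 250 bases before to 50 bases after the annotated start (GRCm38.p6, chr1:83116516-83116815, plus strand). Capitals mark the matches of the motifs searched.
Ccl20 promoter: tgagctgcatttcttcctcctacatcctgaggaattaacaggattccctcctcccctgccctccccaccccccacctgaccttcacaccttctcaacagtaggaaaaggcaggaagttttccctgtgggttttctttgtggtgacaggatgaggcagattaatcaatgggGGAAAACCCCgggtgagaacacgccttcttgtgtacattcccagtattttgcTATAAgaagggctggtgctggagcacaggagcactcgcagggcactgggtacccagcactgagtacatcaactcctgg
The kappaB consensus, the binding motif of NF-kB, matched at bases 171 to 180 of the window, 80 to 71 bases before the start, where the minus strand reads GGGGTTTTCC. The letters TATAA, the core of a TATA box, matched at bases 223 to 227, 28 to 24 bases before the start. Neither TGANTCA, a motif of AP-1, nor TTGCNNAA, a motif of C/EBP factors, was found in these letters. Both strands were searched, and the matches did not overlap each other. The kappaB consensus is common: it was found in 8.46% of the 32851 windows of the table, TATAA in 24.9%, TGANTCA in 7.81% and TTGCNNAA in 10.8%. Among the 7301 tested genes with a window, 778 (10.7%) held the kappaB consensus. It was held by 40 of 321 genes that fell in the knockout (12.5%) and by 55 of 324 that rose (17.0%). A match describes letters in the window and does not show that a factor binds there.

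Values were on a log2 scale and array medians lay between 4.49 and 4.57. Nfkbiz itself was not analysed here, so the knockout was not checked from these values. Differences are given as the log2 fold change, knockout minus wild-type, with its standard error (SE), and were tested with limma across all 9294 genes with Benjamini-Hochberg adjustment at a threshold of 0.05. Over all genes the median log2 fold change was -0.01, and 827 genes passed, 415 higher and 412 lower in the knockout. After subtracting array medians, 482 were higher and 314 lower, and the calls of Ccl20, Ccl2 and Ccl7 were the same. The levels of different probe sets cannot be compared with each other, so the members are compared by the size of the genotype difference and not by level.

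All 3 chemokine genes were lower in the knockout keratinocytes, and on no array did a knockout value reach a wild-type value. The signal of Ccl20 was 3.76-fold lower, that of Ccl7 1.71-fold lower and that of Ccl2 1.46-fold lower. Over all genes tested, 4.43% were called lower, and 7.97% had knockout values below every wild-type value. The members were chosen with earlier results of these arrays known, so their count of 3 in 3 describes them and is no test.

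**Figure D1:**
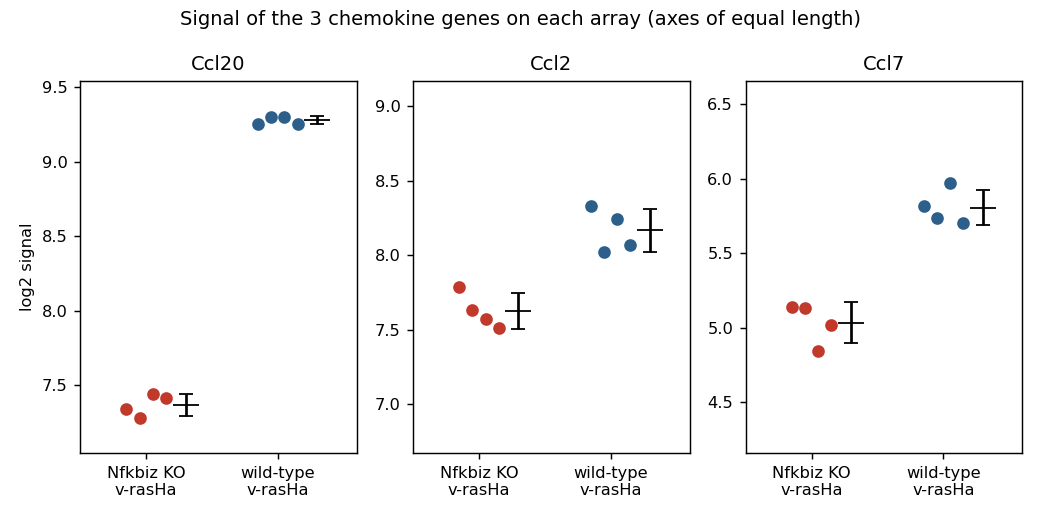
Log2 signal (vertical axis) of Ccl20, Ccl2 and Ccl7 on the 4 Nfkbiz KO v-rasHa arrays (red) and the 4 wild-type v-rasHa arrays (blue). Points are single arrays, black bars are the mean ± SD, and the axes cover equal lengths of the log2 scale. Ccl20 had a gap of 1.82 between the groups, against 0.56 for Ccl7 and 0.24 for Ccl2.

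Ccl20, the gene of the CCR6 ligand, had log2 signals of 7.34, 7.28, 7.44 and 7.42 in knockout replicates 1 to 4, against 9.26, 9.30, 9.30 and 9.25 in wild-type replicates 1 to 4. The knockout arrays spanned 0.16 and the wild-type arrays 0.05, and the highest knockout value lay 1.82 below the lowest wild-type value. Means were 7.37 ± 0.07 in the knockout and 9.28 ± 0.03 in the wild-type (SD, n = 4 each), a log2 fold change of -1.91 ± 0.05 (SE, 95% interval -2.03 to -1.79, limma adjusted p = 1.06e-08). It was the 8th largest fall of the 9294 genes and had the smallest p-value of all of them. The spread within groups was part of that rank: the pooled SD of Ccl20 was 0.05, smaller than in 87.2% of genes. The median pooled SD over all genes was 0.10. In the 14 alternative analyses Ccl20 ranked first by p in 10 and between the second and the fifth place in the others. In a culture measured as a whole, fewer cells that make a transcript and less of it per cell cannot be told apart. The knockout mean lay 2.85 above the array medians.

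Ccl2, the gene of monocyte chemoattractant protein-1, had log2 signals of 7.79, 7.63, 7.57 and 7.51 in knockout replicates 1 to 4, against 8.33, 8.02, 8.25 and 8.07 in wild-type replicates 1 to 4. The groups did not overlap, but the gap of 0.24 between them was smaller than the span within either group, 0.28 in the knockout and 0.31 in the wild-type. Means were 7.63 ± 0.12 in the knockout and 8.17 ± 0.14 in the wild-type (SD, n = 4 each). The log2 fold change was -0.54 ± 0.08 (SE, 95% interval -0.72 to -0.36, limma adjusted p = 0.00152). Both groups lay well above the array medians, by 3.10 in the knockout and 3.62 in the wild-type. Ccl2 was the 116th largest fall.

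Ccl7, the gene of monocyte chemoattractant protein-3, had log2 signals of 5.14, 5.13, 4.84 and 5.02 in knockout replicates 1 to 4, against 5.82, 5.74, 5.97 and 5.70 in wild-type replicates 1 to 4. The groups were separated by 0.56, about as much as the spans of 0.29 in the knockout and 0.27 in the wild-type together. Means were 5.03 ± 0.14 in the knockout and 5.81 ± 0.12 in the wild-type (SD, n = 4 each), a log2 fold change of -0.77 ± 0.08 (SE, 95% interval -0.95 to -0.60, limma adjusted p = 0.000108). The probe set of Ccl7 lay 0.51 above the array medians in the knockout and 1.26 above them in the wild-type. It was the 63rd largest fall. Ccl2 and Ccl7 are also made by fibroblasts. Of 8 measured fibroblast marker genes, 6 fell in the same knockout arrays, 1 did not pass and 1, Postn, rose by 1.47. For comparison, 4.43% of all genes tested were called lower and 4.47% higher. The median log2 fold change of the 8 fibroblast markers was -0.55. Their part in the result was not tested.

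**Figure D2:**
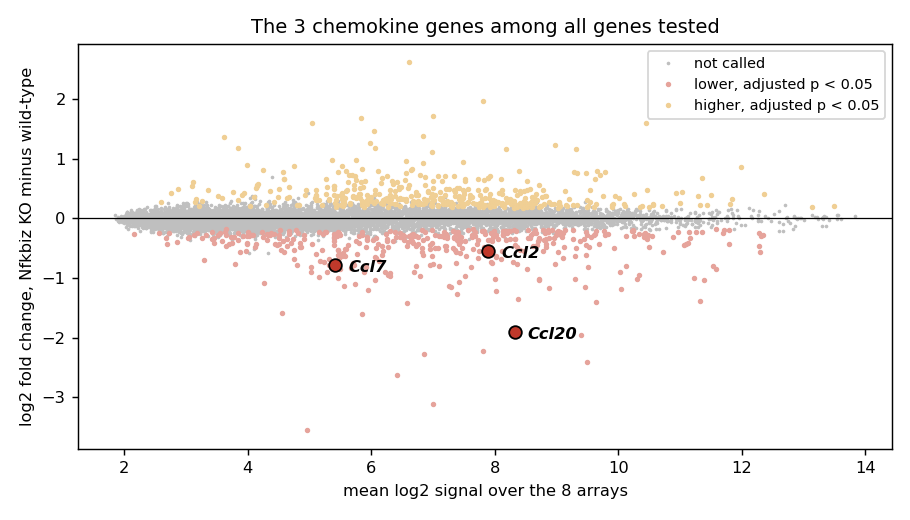
Mean log2 signal over the 8 arrays (horizontal axis) and log2 fold change, knockout minus wild-type (vertical axis), of the 9294 genes tested. Each point is 1 gene, coloured by its limma call. Ccl20, at -1.91, stands below most called genes, while Ccl2 at -0.54 and Ccl7 at -0.77 lie within the range of many genes called lower.

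The fall of Ccl20 was larger than that of either monocyte chemokine gene. For each pair, the difference between the 2 log2 signals was taken on each array and compared between genotypes with an exact two-sided permutation test over the 70 regroupings of the arrays. Ccl20 minus Ccl2 was -0.26 ± 0.17 in the knockout and 1.11 ± 0.15 in the wild-type (SD, n = 4 each). The change in Ccl20 therefore exceeded that in Ccl2 by a log2 value of -1.37, with a 95% interval of -1.72 to -1.02 from inverting the exact permutation test. Ccl20 minus Ccl7 was 2.34 ± 0.20 in the knockout and 3.47 ± 0.11 in the wild-type, a difference of changes of -1.14 (95% interval -1.41 to -0.74). Both comparisons had an exact permutation p = 0.0286, the smallest this design can give, and 0.0429 after adjustment over the 3 pairs. Ccl2 minus Ccl7 was 2.59 ± 0.12 in the knockout and 2.36 ± 0.11 in the wild-type. That difference of changes, 0.23 with a 95% interval of -0.02 to 0.46, did not pass (exact permutation p = 0.0857, and 0.0857 adjusted over the pairs). Without wild-type replicate 1 it was 0.28 and passed (adjusted exact permutation p = 0.0286), so that 1 array decides whether the falls of Ccl2 and Ccl7 are told apart. Probe sets can differ in how strongly signal follows transcript level, which these tests do not correct.

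Most other measured chemokine genes did not differ between the genotypes beyond the threshold. Of 24 CC chemokine genes listed, 13 were measured: Ccl20, Ccl2 and Ccl7 were the 3 that fell, 1 rose and 9 were not called by limma, where 8.9% of all genes tested were called in either direction and 4.47% were called higher. The median log2 fold change of the 13 was -0.08, and it was -0.06 over the 10 that remain without Ccl20, Ccl2 and Ccl7. The CC gene that rose was Ccl5, which encodes a chemoattractant of T cells and monocytes. Ccl5 averaged 8.80 ± 0.16 in the knockout and 6.83 ± 0.11 in the wild-type (SD, n = 4 each), a log2 fold change of 1.97 ± 0.08 (SE, limma adjusted p = 1.38e-07). Its rise was close in size to the fall of Ccl20, so the pair of CC chemokine genes with the largest differences moved in opposite directions. A total of 6 of the 13 had mean signals below the lowest array median. No background level was measured and no detection calls were used, so whether low signals differ from background is not known.

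Among 17 listed chemokine genes of the CXC, C and CX3C classes, 8 were measured, of which 3 fell, 1 rose and 4 did not pass, with a median of -0.07. Of all genes tested, 4.43% were called lower and 4.47% higher. The 3 chemokine genes that fell encode neutrophil chemoattractants that signal through CXCR2. Ppbp, whose product also gives rise to a CXCR2 ligand, did not pass. This gene was picked out once its result was known. It averaged 8.66 ± 0.10 in the knockout and 8.69 ± 0.13 in the wild-type (SD, n = 4 each). The log2 fold change of Ppbp was -0.03 ± 0.07 (SE, limma adjusted p = 0.89). Cxcl5 had a log2 fold change of -1.04 ± 0.09 (SE), Cxcl3 of -0.73 ± 0.07 and Cxcl2 of -0.56 ± 0.08, with limma adjusted p of 2.16e-05, 6.31e-05 and 0.000624. The log2 fold change of Ccl7, -0.77, lay between those of Cxcl5 and Cxcl2, that of Ccl2, -0.54, was slightly smaller than that of Cxcl2, and that of Ccl20, -1.91, was larger than that of Cxcl5. Cxcl10, an interferon-inducible ligand of CXCR3, rose by 1.72 ± 0.11 (SE, limma adjusted p = 2.12e-06). Of the 8 chemokine genes called among all classes, Ccl5 and Cxcl10 were the 2 that rose.

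**Figure D3:**
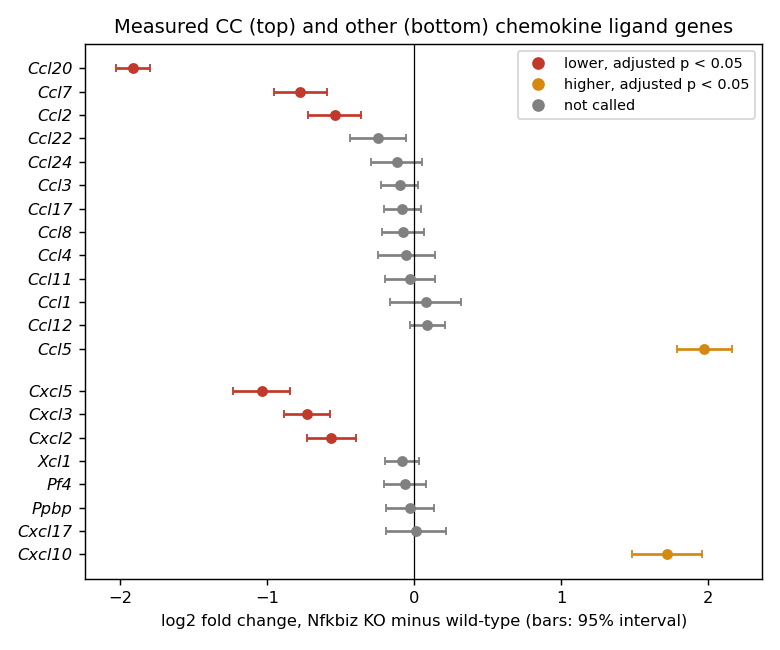
Log2 fold change, knockout minus wild-type (horizontal axis), of the 13 measured CC chemokine genes (top) and the 8 measured genes of the other classes (bottom). Points are limma estimates over 4 arrays per genotype, bars are 95% intervals, and colours give the limma call. Ccl20 lies at -1.91 and Ccl5 at 1.97, at opposite ends of the CC genes.

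Of 24 chemokine receptor genes listed, 15 were measured, of which 1 fell, none rose and 14 did not pass in limma. For comparison, 8.9% of all genes tested were called in either direction and 4.43% were called lower. Mean signals of 11 of the 15 lay below the lowest array median. Ccr6, the receptor gene for CCL20, had 4.43 ± 0.08 in the knockout and 4.56 ± 0.24 in the wild-type (SD, n = 4 each), values near the array medians. Its log2 fold change was -0.13 ± 0.10 (SE, limma adjusted p = 0.535). Ccr2, the receptor gene for CCL2 and CCL7, and Ackr2, the gene of a scavenger of CC chemokines, were not analysed here. The receptor gene that fell was Ackr3, whose protein is an atypical receptor that takes up CXCL12, with a log2 fold change of -0.32 ± 0.05 (limma adjusted p = 0.0013), read from a probe set that can bind several transcripts. Without knockout replicate 4, 2 receptor genes fell in place of 1.

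Most measured genes of interleukin-1 and interleukin-17 signalling did not pass, and those that passed fell. Of all genes tested, 4.43% were called lower. Interleukin-1 and interleukin-17 both induce Ccl20 through NF-kB in epithelial cells. The part of these genes in the falls of Ccl20, Ccl2 and Ccl7 was not tested. Il1a, which encodes interleukin-1 alpha, averaged 9.58 ± 0.07 in the knockout and 10.48 ± 0.06 in the wild-type (SD, n = 4 each), a log2 fold change of -0.90 ± 0.06 (SE, limma adjusted p = 2.12e-06). Il1b, the gene of interleukin-1 beta, was named after its values were seen. It had -0.14 ± 0.06 (limma adjusted p = 0.226) and did not pass. Of 7 measured interleukin-1 family ligands, receptors and adaptors in a list of 19, Il1a and the decoy receptor gene Il1r2 fell, none rose and 5 did not pass in limma, with a median of -0.21. Il1r2 had -0.27 ± 0.06, at signals near or below the array medians. Of 6 measured genes of interleukin-17 receptor signalling in a list of 17, 2 fell, none rose and 4 did not pass in limma, with a median of -0.07. They were Traf3ip2, the gene of the receptor adaptor Act1, with -0.32 ± 0.05 (limma adjusted p = 0.00141), and the kinase gene Ikbke, with -0.25 ± 0.06 (limma adjusted p = 0.016). Ikbke lost its call without knockout replicate 2 (limma adjusted p = 0.053), which leaves 1 gene called.

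Most measured genes of NF-kB subunits, IkB proteins and other regulators of NF-kB were higher in the knockout. Of 5 measured in a list of 16, 4 rose, none fell and 1 did not pass in limma, with a median log2 fold change of 0.24. Of all genes tested, 4.47% were called higher. Relb, an NF-kB subunit gene, rose by 0.64 ± 0.09 (SE), and Nfkbid, which encodes a nuclear IkB related to IkBz, rose by 0.46 ± 0.09. Tnip1, the gene of an inhibitor of NF-kB activation, rose by 0.24 ± 0.05, and Rela, the gene of the p65 subunit, by 0.23 ± 0.05. The fifth gene, Bcl3, which encodes another nuclear IkB and was named after its values were seen, had -0.22 ± 0.07 (limma adjusted p = 0.0932). With quantile normalization repeated, and with eBayes with trend and robust estimation, Bcl3 was called lower, so that 4 rose and 1 fell. Without knockout replicate 1 or wild-type replicate 2, 2 of the 5 rose in place of 4. Of 3 measured regulators of AU-rich transcripts in a list of 13, Arid5a, which encodes an RNA-binding protein that stabilises inflammatory transcripts, rose by 0.26 ± 0.06 (limma adjusted p = 0.0192). Its call was lost in 5 of 14 alternatives, where its adjusted p in limma reached 0.0604, among them those without knockout replicate 1 or 3 or wild-type replicate 2 or 3. Zfp36, the gene of the decay factor tristetraprolin, had -0.11 ± 0.07 (limma adjusted p = 0.411). Cebpb, Cebpd and Zc3h12a were not analysed here.

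Genes with the most similar profiles were found as those with the smallest root mean square distance over the 8 arrays between log2 signals, each gene taken relative to its own mean. The measure takes in the genotype difference itself, so these genes fell by amounts like those of the member they match. For Ccl20 they were Tmem45a, a membrane protein gene, at a distance of 0.14, Cbr2, a carbonyl reductase gene, at 0.19, and Csf3, whose product drives granulocyte formation, at 0.22. Lancl3 at 0.22 and Mab21l3 at 0.23 followed. Their log2 fold changes were -1.95 for Tmem45a, -2.22 for Cbr2, -2.27 for Csf3, -1.59 for Lancl3 and -1.60 for Mab21l3, against -1.91 for Ccl20. The nearest genes of Ccl20 varied more between replicates than Ccl20 did, for example Tmem45a with 8.42 ± 0.19 in the knockout and 10.38 ± 0.12 in the wild-type (SD, n = 4 each). Cbr2 did so in the wild-type only, with an SD of 0.11 against 0.03 for Ccl20. In the knockout both had an SD of 0.07. The genes nearest to Ccl2 were Egflam at 0.07, Cxcl2 at 0.08, Pla1a, a phospholipase gene, at 0.08, P4ha2, a collagen prolyl hydroxylase gene, at 0.09 and St3gal1, a sialyltransferase gene, at 0.10. Their log2 fold changes ran from -0.60 in Pla1a to -0.44 in Egflam. Ccl2, Egflam and Cxcl2 each had their highest knockout value in replicate 1 and their highest wild-type value in replicate 1. Such a shared pattern is part of the distance by which these genes were picked. Pla1a and St3gal1 also had their highest knockout value in replicate 1, but their highest wild-type value in replicate 4. P4ha2 had its highest value in replicate 3 of both genotypes. The genes nearest to Ccl7 were Arhgdib at 0.07, 4930438A08Rik at 0.10, Slc5a8, a monocarboxylate transporter gene, at 0.11, Il1a at 0.11 and Slc23a4 at 0.12. Their log2 fold changes ran from -0.90 in Il1a to -0.64 in Slc23a4. Ccl2 and Ccl7 were 0.15 apart, with 23 genes nearer to Ccl7 than Ccl2 was and 48 genes nearer to Ccl2 than Ccl7 was. Ccl20 was 0.70 from Ccl2 and 0.58 from Ccl7.

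**Figure D4:**
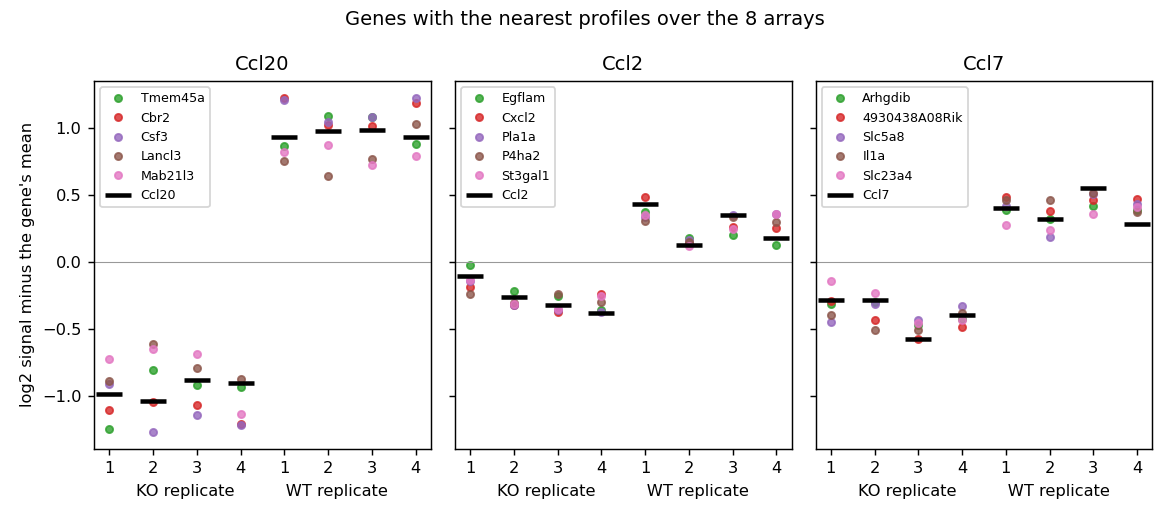
Log2 signal minus the gene's mean over the 8 arrays (vertical axis) in the 4 knockout and the 4 wild-type replicates (horizontal axis), for Ccl20, Ccl2 and Ccl7 (black bars) and the 5 genes nearest to each (coloured points). The bars of Ccl20 lie close to level within each genotype, while its nearest genes scatter around them.

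Ccl2 and Ccl7 are neighbours on chromosome 11, in a cluster of CC chemokine genes, and none of the other nearest measured genes passed in limma. Next to Ccl7, away from Ccl2, Ccl11, Ccl12 and Ccl8 follow each other in the gene table of GRCm38.p6. Ccl11, the eotaxin gene, had 2.64 ± 0.04 in the knockout and 2.67 ± 0.16 in the wild-type (SD, n = 4 each). Ccl12, the gene of another CCR2 ligand of mice, had 2.61 ± 0.03 in the knockout and 2.52 ± 0.08 in the wild-type. Both lay far below the array medians. Ccl8 lay above the medians with 5.05 ± 0.12 in the knockout and 5.12 ± 0.06 in the wild-type, and its log2 fold change was -0.08 ± 0.07 (SE, limma adjusted p = 0.585). On the other side of Ccl2, the nearest measured genes 1700071K01Rik, Asic2 and Tmem98 had log2 fold changes of -0.02, 0.10 and 0.04, with limma adjusted p of 0.94, 0.637 and 0.735. Mean signals of 1700071K01Rik and Asic2 lay below the array medians, and those of Tmem98 above them.

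Ccl20 lies on chromosome 1, away from other CC chemokine genes. Its nearest measured neighbours, Krtap28-13, Tm4sf20, Daw1, C130026I21Rik and Sp110, did not pass in limma, with log2 fold changes of -0.16 to 0.04 and adjusted p of 0.201 to 0.796. All of these but C130026I21Rik lay below the array medians. Irs1, the insulin receptor substrate gene 9 protein-coding genes away, rose by 0.66 ± 0.07 (SE, limma adjusted p = 6.8e-05), opposite to Ccl20.

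Marker genes of the labelled cell type and of other cells were measured on the same arrays. Of all genes tested, 4.43% were called lower and 4.47% higher. Of 8 measured keratinocyte markers in a list of 14, 1 fell, Col17a1 with -0.31 ± 0.07, none rose and 7 did not pass in limma, with a median of -0.01. Summed log2 signals of the 8 were 75.9 to 77.8 in the knockout and 77.0 to 77.1 in the wild-type, and Krt5 was bright with 13.3 in the knockout and 13.4 in the wild-type. Of 8 measured fibroblast markers in a list of 15, 6 fell, 1 rose and 1 did not pass, with a median log2 fold change of -0.55. Their summed log2 signals were 46.7 to 48.0 in the knockout and 49.6 to 50.5 in the wild-type, which do not overlap. The 6 that fell were Twist2, Dcn, Dpt, Thy1, Col6a1 and Lum, with -1.02 to -0.48, Postn rose by 1.47 ± 0.09, and Fap did not pass. The falls of Ccl2 and Ccl7 were in the range of the 6 fibroblast markers called lower, a range that leaves out Postn and Fap. Genes outside the marker list were in that range too, among them Cxcl2 with -0.56 and Il1a with -0.90. The fall of Ccl20 was larger than that of any fibroblast marker.

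Markers of macrophages and monocytes, which can also make CCL2 and CCL7, mostly had low signals. Of 10 measured macrophage and monocyte markers in a list of 16, none passed in limma, where 8.9% of all genes tested passed. The median of the 10 was -0.07, and 7 of them had mean signals below the lowest array median. Their summed log2 signals were 40.4 to 41.2 in the knockout and 41.1 to 41.9 in the wild-type, which overlap. None of 6 measured Langerhans and dendritic cell markers, with sums of 25.2 to 27.1 in the knockout and 26.5 to 26.7 in the wild-type, passed in limma. The same held for 6 endothelial markers, with sums of 22.6 to 23.4 in the knockout and 23.2 to 23.5 in the wild-type. Of 5 measured T cell markers, 1 fell, Thy1, which fibroblasts also express. The T cell sums were 21.6 to 22.5 in the knockout and 22.7 to 22.9 in the wild-type, which do not overlap. These sums include Thy1, whose log2 fold change was -0.61. Cd3d, Cd3e, Cd3g and Cd2 did not pass, with log2 fold changes of -0.07 to -0.001, and each overlapped between the genotypes. Of 3 measured melanocyte markers, Pmel fell by 0.28 ± 0.06 (SE), 2 did not pass and the median was -0.20. All 3 were lower in the knockout, by -0.28 to -0.18. They were bright, with a median level of 9.79, far above the array medians. The melanocyte sums, 27.8 to 28.7 in the knockout and 28.9 to 29.1 in the wild-type, did not overlap either. The part of any of these cells in the falls of Ccl20, Ccl2 and Ccl7 was not tested.

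**Figure D5:**
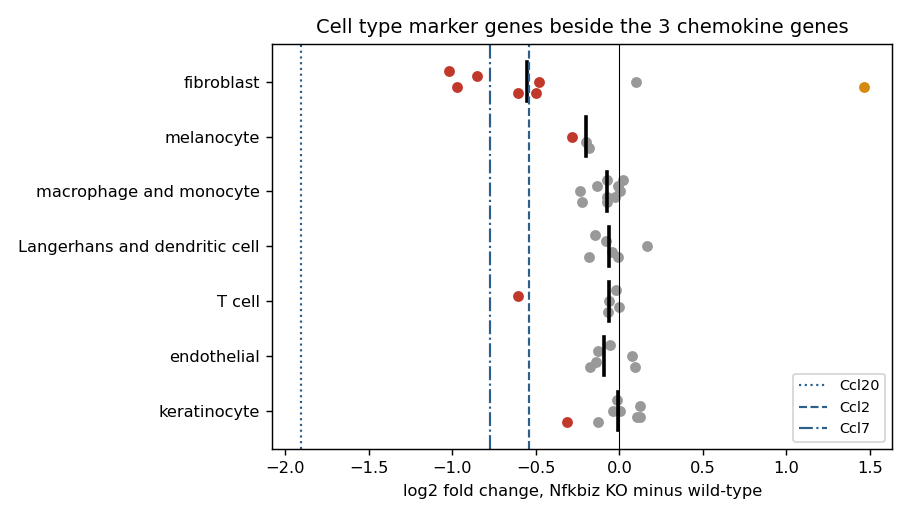
Log2 fold change, knockout minus wild-type (horizontal axis), of measured marker genes of 7 cell types (rows). Each point is 1 gene, red where called lower, orange where called higher and grey where not called in limma, black bars are list medians, and the vertical lines mark Ccl20, Ccl7 and Ccl2. Most fibroblast markers lie around the lines of Ccl7 and Ccl2, and no marker reaches the line of Ccl20.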

How the data were processed

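The deposited table gave log2 signals of 11373 probe sets on 8 arrays. That the authors deposited log2 values was read from their range, since summarisation, normalization and genome build were not given in the sources used here. No scan dates or detection calls were used. Probe sets were named through the platform annotation: 9374 had 1 symbol, 479 several and 1520 none. Each gene was represented by its brightest probe set with 1 symbol, which gave 9294 genes, 9201 of them matched to a RefSeq gene table of GRCm38.p6. Genotypes were compared in R 4.3.3 with limma 3.58.1 (functions lmFit and eBayes, no covariate), with Benjamini-Hochberg adjustment over all 9294 genes. Pairs of members were compared with exact permutation tests. The same limma functions were tested on simulated data. The number of arrays limits the precision, and the median SE of a log2 fold change was 0.07.

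The members and lists were chosen with earlier results of these data known. The 3 members are always named, with up to 6 called genes of each of 7 lists, the 5 nearest profiles and up to 3 measured neighbours on each side of each member, and fixed receptors, chemokines and regulators. Marker genes named were chosen after their values were seen. Alternatives were repeated quantile normalization, centring, leaving out the lowest 25% of genes, eBayes with a trend and robust estimation, the mean of probe sets, a replicate block and leaving out each array.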

Additional observations from a re-analysis of the deposited data

Results flagged for a closer look

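In 90 groups of 4 arrays, those of the 45 named genes in each genotype, 4 held 1 array far from the other 3 relative to the range of the group, where chance flags about 1 group in 20. None of the 4 was a group of Ccl20, Ccl2 or Ccl7. Mab21l3, among the profiles nearest to Ccl20, had 4.70 in knockout replicate 4, against 5.12 to 5.19 in the other knockout arrays, and without that array its log2 fold change was -1.49. Pla1a, among those nearest to Ccl2, had 5.92 in wild-type replicate 2, against 6.10 to 6.12 in the other wild-type arrays, and -0.65 without it. Relb had 6.97 in wild-type replicate 4, against 6.56 to 6.60 in the other wild-type arrays, and without it rose by 0.73 (limma adjusted p = 8.21e-05). The neighbour 1700071K01Rik had 3.67 in wild-type replicate 3, against 3.83 to 3.85 in the other wild-type arrays, all below the array medians.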

How the results depend on the processing

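Ccl20, Ccl2 and Ccl7 kept their direction and their limma call in all 14 alternatives, with log2 fold changes of -1.94 to -1.88 for Ccl20, -0.59 to -0.49 for Ccl2 and -0.81 to -0.71 for Ccl7, and highest adjusted p of 2.23e-06, 0.00703 and 0.00169. Same-numbered arrays shared only a number: their deviations from group means correlated over genes with r of -0.05 to 0.09, and not every array correlated best with its own number. With the replicate block their values were -1.91, -0.54 and -0.77, and of the other calls of single genes it ended those of Arid5a (limma adjusted p = 0.0601) and Rela (limma adjusted p = 0.0549). The count of called genes was 659 with the block, 325 higher and 334 lower, and 598 to 687 without 1 array. With arrays centred on their median it was 796, 482 higher and 314 lower, so the balance of directions moved from 50.2% higher to 60.6% higher. The larger fall of Ccl20 held without any 1 array, by -1.43 to -1.30 against Ccl2 and by -1.22 to -1.07 against Ccl7. For Ccl2 against Ccl7 the difference was 0.19 to 0.28, and it passed without wild-type replicate 1. Taken as pairs of same-numbered arrays, none of these comparisons of 2 members could pass, since the smallest exact p of 4 pairs is 0.125. Called genes in the lists, with 1 array left out, were 1 to 2 receptors, 1 to 2 interleukin-17 genes, 2 to 4 NF-kB genes and 0 to 1 regulators of AU-rich transcripts. With quantile normalization, and with eBayes with trend and robust estimation, 4 NF-kB genes rose and 1 fell. Regulators of AU-rich transcripts numbered 0 with the replicate block and 2 with eBayes with trend and robust estimation. The causes were not tested. Of the other 42 named genes, 35 kept call and sign throughout and 4 lost their call (Arid5a, Rela, Tnip1 and Ikbke). A further 3, all below the array medians and not called, changed sign: 1700071K01Rik was 0.0114 with centring, 0.0154 with quantile normalization and -0.0593 to 0.028 without 1 array, Ccl11 was -0.1009 to 0.0234 and Krtap28-13 -0.0046 to 0.0654 without 1 array.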
